A study of Mus musculus with 6 samples.

Results

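The data described here are the 3 arrays of the wildtype line in a study of cultured mouse podocytes, out of 6 arrays in all. The arrays were chosen by their labels alone, and the values were log2 probe set intensities for 30705 genes, each represented by a probe set that named that gene only. The line was conditionally immortalized, meaning that it divides under a permissive condition and differentiates when that condition is withdrawn. The cells had differentiated for 10 days on plates coated with type I collagen, and total RNA was extracted with Trizol and labelled with biotin. The 3 arrays are described as independent replicates of this line, so they share 1 line and say nothing about other wildtype lines or podocytes in the kidney. The study's other 3 arrays, from a line without NCK1 and NCK2, were not used.

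Podocytes are the epithelial cells that wrap the capillaries of the glomerulus, the filter of the kidney. Their interlocking foot processes are joined by the slit diaphragm, a cell junction built on nephrin (Nphs1) and tied to the actin cytoskeleton through adaptors such as Nck1, Nck2 and Cd2ap. In culture, podocyte lines stop dividing when they differentiate and are known to hold their slit diaphragm genes poorly.

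The array carries control probe sets that should match no transcript, grouped by the number of G and C bases in the probe. The mean log2 intensity of these 23 sets ran from 2.31 to 7.84, and the highest, at 7.84, is called the background level below. Their means rose with the G and C count, from 2.31 at 3 through 4.47 at 14 to 7.84 at 22, and were 7.06 at 25. A single level is therefore stricter for probes with few G and C bases. A gene was called expressed where all 3 arrays exceeded that level. By this rule 10554 of 30705 genes were expressed (34.4%), 478 exceeded the level in 2 arrays, 603 in 1 array and 19070 in none. A gene at or below the level is not shown to be silent, because the background of its own probes is unknown. For the same reason an order of genes by intensity is an order of probe sets and not of transcript numbers. No test was possible within a single group of 3, so all values are descriptions, given as the mean log2 intensity ± SD with n = 3, or as 3 values in the order of arrays 1, 2 and 3. At the level itself, C1qtnf4 lay just above by its mean with 7.98, 7.68 and 7.87, and Mir697 lay just below with 7.90, 7.84 and 7.79. The next were Mir8090 and Cxcl10 above and Mir694 and Ptma-ps2 below.

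**Figure D1:**
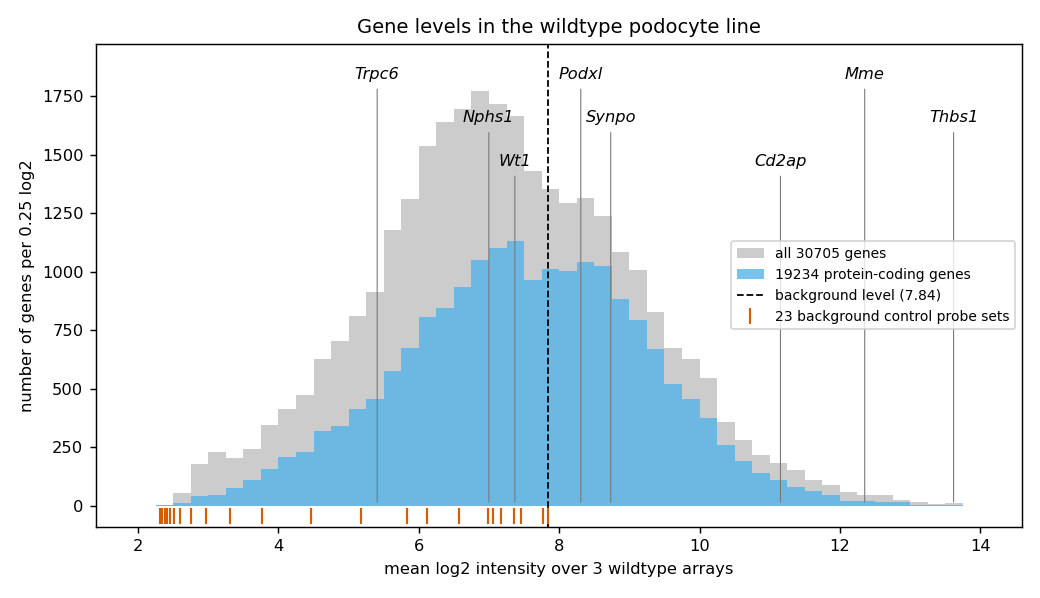
Number of genes per 0.25 log2 units against the mean log2 intensity over the 3 wildtype arrays, for all 30705 genes (grey) and the 19234 protein-coding genes (blue). The dashed line is the background level of 7.84, orange ticks are the 23 background control probe sets, and named genes show that Trpc6, Nphs1 and Wt1 lay below the level while Podxl, Synpo, Cd2ap, Mme and Thbs1 lay above it.

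The cells labelled podocytes held part of the podocyte programme and lacked its defining members above background. Nphs1, which encodes nephrin, read 7.11, 6.90 and 6.98, below the level in each array and close to the median of all genes, 7.15. Wt1, the transcription factor most used to identify podocytes, read 7.41, 7.36 and 7.33. Tcf21, another transcription factor of podocytes, read 6.51, 6.50 and 6.45. In contrast Synpo, whose product synaptopodin binds actin in foot processes, read 8.77, 8.72 and 8.71, and Podxl, the negatively charged surface protein podocalyxin, read 8.21, 8.44 and 8.27. Both were above the level in every array without standing high, with 79.0% and 72% of genes at or below them. Magi2 had no probe set naming it alone and was not analysed here. The cells are therefore called the wildtype line in what follows.

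Of the slit diaphragm genes, 13 of 21 measured were expressed (61.9%, against 34.4% of all genes and 41.8% of protein-coding genes). The shares over all genes and over protein-coding genes are the comparison for each gene list below, microRNA families aside. The median level of the list was 9.0, against 7.15 over all genes and 7.52 over protein-coding genes. The large cadherin Fat1 was the brightest of them at 12.22 ± 0.04, followed by the polarity kinase gene Prkci at 11.66 ± 0.02. Cd2ap, the adaptor that joins nephrin to actin, read 11.06, 11.21 and 11.19. The scaffold genes Iqgap1, Tjp1, Magi1 and Cask were at 10.84, 10.65, 9.01 and 9.29. Kirrel, which encodes the nephrin partner NEPH1, read 10.53, 10.57 and 10.44, whereas its relatives Kirrel2 and Kirrel3 lay below the level at 7.32 ± 0.20 and 7.14 ± 0.06. The junction gene Igsf5, the kinase gene Fyn, which phosphorylates nephrin, and the polarity genes Pard3 and Pard6b were also expressed, at 9.98, 9.47, 9.0 and 8.73.

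The 2 genes that the study removed from its other line differed in where they stood. Nck1 (probe set TC0900002936.mm.1, chromosome 9) read 8.54, 8.74 and 8.62 and was expressed. Nck2 (probe set TC0100000323.mm.1, chromosome 1) read 7.37, 7.62 and 7.45, below the level in each array. Because these are different probe sets, the gap does not give the ratio of the transcripts. The calcium channel genes Trpc5 and Trpc6, both disease genes or disease targets of podocytes, were far below the level at 6.04 ± 0.13 and 5.41 ± 0.04. The phospholipase gene Plce1 was at 6.81 ± 0.06 and the polarity gene Crb2 at 7.40 ± 0.10.

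Among transcription factors of podocytes, 9 of 15 measured were expressed (60.0%), with a list median of 8.12. Foxc1 read 9.39, 9.60 and 9.49, while its paralog Foxc2 read 6.69, 6.75 and 6.70. Lmx1b, the gene of nail-patella syndrome, was barely above the level with 8.11, 7.93 and 7.94. The cofactor gene Ldb1, which partners LIM factors such as Lmx1b, was at 10.07 ± 0.06. Tead1, Nfix, Nfia and Zhx2 were at 9.85, 9.43, 8.65 and 8.36, and the forkhead genes Foxd2 and Foxd1 at 8.15 and 8.12. Osr1 and Hoxc8 exceeded the level in 2 arrays each, at 7.89 ± 0.15 and 7.85 ± 0.14, so their calls turn on 1 array. Lhx9 lay below at 6.58 ± 0.11.

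Genes of the podocyte surface and foot process were split, with 15 of 30 measured expressed (50%, against 41.8% of protein-coding genes). The list median was 8.01. Vim and Nes, the intermediate filament genes that podocytes keep from their mesenchymal origin, were at 12.81 ± 0.03 and 10.21 ± 0.08. Mme, the surface peptidase neprilysin, read 12.26, 12.42 and 12.38, and 99.6% of genes were at or below it. Ezr, which links podocalyxin to actin, was at 11.26 ± 0.01, and its scaffold partner Slc9a3r2 (NHERF2) was at 8.10 ± 0.15. The complement regulator gene Cd59a and the dystroglycan gene Dag1 were at 10.75 and 10.69. Thsd7a, which encodes an antigen of membranous nephropathy, read 9.82, 10.09 and 9.89, while Pla2r1, the other main antigen, read 5.99, 5.90 and 5.90. Vegfa, by which podocytes sustain the glomerular endothelium, was at 9.58 ± 0.04, and the ligand genes Npnt and Efnb1 at 9.96 ± 0.13 and 9.27 ± 0.04. Enpep and Htra1, a peptidase and a protease gene, were at 8.95 ± 0.20 and 8.75 ± 0.12.

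The remaining surface markers were low. Ptpro, a receptor phosphatase of foot processes, read 5.73, 5.42 and 5.63, and the podoplanin gene Pdpn read 6.91, 6.51 and 6.91. Ddn, Clic5, Bmp7, Dach1, Sulf1 and Sema3g were at 6.57, 7.02, 7.22, 6.29, 6.07 and 7.26, and Rhpn1, Tyro3 and Cldn5 at 7.62, 7.60 and 6.99. The cell cycle inhibitor gene Cdkn1c, a marker of podocytes that have left the cell cycle, exceeded the level in 2 arrays, with 8.12, 7.84 and 7.80. Cxcl12 was the only member of the 3 podocyte lists whose range over arrays reached 0.5, with 7.08, 6.36 and 6.96, all below the level.

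Genes in which mutations cause nephrotic syndrome and that act on the cytoskeleton, adhesion, nuclear pores or coenzyme Q were mostly expressed, at 21 of 30 measured (70.0%), with a list median of 8.64. Itga3 and Actn4, an integrin and an actin crosslinker gene, were the brightest at 11.61 ± 0.02 and 11.36 ± 0.03. Sgpl1, Lamb2, Anln, Myo1e, Kank2 and Inf2 were at 10.89, 9.70, 9.49, 9.35, 9.33 and 9.03. The pore genes Nup205, Nup93 and Nup107 were at 8.98, 8.87 and 8.37, and Coq2 and Coq8b at 9.0 and 8.12. Members at or below the level in every array included Avil, Daam2, Kank1, Kank4 and Synpo2, at 7.17, 7.08, 7.51, 6.69 and 6.33.

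Markers of neighbouring kidney cells were not uniformly low. The parietal epithelium lines the capsule around the glomerulus, and 10 of its 13 markers were expressed (76.9%), with a list median of 10.03. Pax8, a transcription factor that mature podocytes normally lack, read 11.42, 11.47 and 11.36, and Pax2 read 10.31, 10.45 and 10.29. Cldn1, a tight junction gene of parietal cells, read 10.67, 10.75 and 10.63, and Cd44, a marker of activated parietal cells, read 9.99, 10.09 and 10.02. The arrays hold bulk RNA, in which a few cells with much of a transcript and many cells with little cannot be told apart, and fewer cells of a type likewise cannot be told apart from less RNA per cell. Whether other kidney cells added to these values was not tested. Cd24a, Cdh6, Dkk3, Ncam1, Cd9 and Wnt4 were at 12.53, 11.39, 11.07, 9.82, 9.55 and 8.84, whereas the keratin genes Krt8 and Krt18 and the actin-severing gene Scin lay below the level at 7.32, 6.77 and 6.20.

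Of the tubule markers, 3 of 16 measured were expressed (18.8%), and those 3 stood high while the list median was 7.43. Aqp1, the water channel of the proximal tubule, read 12.98, 12.95 and 12.84. Lrp2, the endocytic receptor megalin, read 11.75, 11.78 and 11.74, and Cdh16, the kidney-specific cadherin, read 11.64, 11.62 and 11.53. Megalin's partner Cubn was at 7.41 ± 0.15 and the proximal transporter genes Slc34a1 and Slc5a2 at 7.33 ± 0.16 and 7.46 ± 0.13. Aqp2 and Foxi1, of the collecting duct, exceeded the level in 2 arrays and in 1 array, at 7.89 ± 0.19 and 7.74 ± 0.23. Umod, Slc12a1, Slc12a3 and Calb1, of more distal segments, were at 5.80, 5.74, 7.17 and 5.02.

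**Figure D2:**
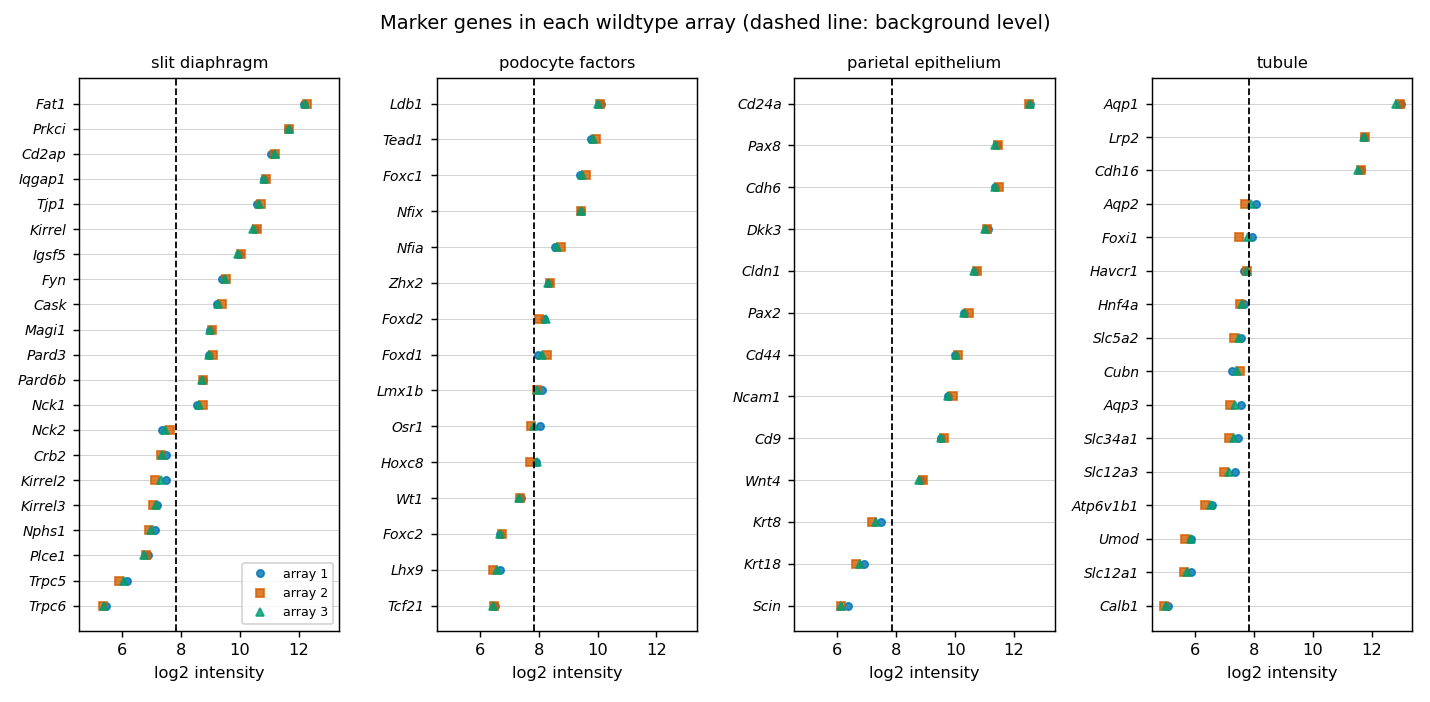
Log2 intensity of each measured slit diaphragm gene, podocyte transcription factor, parietal epithelial marker and tubule marker in wildtype arrays 1 (circle), 2 (square) and 3 (triangle), with the background level of 7.84 as a dashed line. Nphs1, Wt1 and Tcf21 lay left of the line in every array, while Pax8, Pax2, Aqp1, Lrp2 and Cdh16 lay far to the right.

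Markers of endothelial, immune, fibroblast, neuronal, muscle, hepatic and intestinal cells were sparse, with list medians from 6.31 for hepatic and intestinal to 7.10 for fibroblast and pericyte markers. Among endothelial markers 1 of 14 was expressed (7.14%), the trafficking gene Ehd3 at 9.10 ± 0.13, while the defining genes Pecam1, Cdh5 and Kdr were at 5.98, 6.61 and 5.81. Of the immune markers 2 of 14 were expressed, Csf1r at 9.62 ± 0.11 and Cd14 at 8.74 ± 0.11. The pan-leukocyte gene Ptprc was at 5.01 ± 0.06 and the macrophage genes Adgre1 and Itgam at 5.76 and 6.52, so Csf1r and Cd14 stood above background without the defining leukocyte genes. Of fibroblast and pericyte markers 2 of 13 were expressed, Col1a1 at 8.54 ± 0.12 and S100a4 at 8.11 ± 0.09, with Pdgfrb, Thy1 and Dcn at 7.56, 7.28 and 6.43. Neuronal and muscle markers had 1 of 13 expressed, the creatine kinase gene Ckm at 8.07 ± 0.21, and hepatic and intestinal markers 0 of 12, with Alb at 5.76 ± 0.08.

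Genes of mesenchymal transition were expressed almost throughout, at 9 of 10 measured (90.0%), with a list median of 9.01. Snai2, a repressor of epithelial genes, read 10.77, 10.93 and 10.90. Zeb1, Twist2, Foxf1, Tbx18, Tcf4, Runx1, Snai1 and Twist1 ran from 9.60 down to 7.94, and Prrx1 was the exception at 6.06 ± 0.19. Cadherins fell on both sides of the level. Cdh2, or N-cadherin, read 12.90, 12.96 and 12.93, and Cdh11, Cdh6 and Cdh3 were at 11.60, 11.39 and 10.45. Cdh1, the E-cadherin of most epithelia, read 6.41, 6.15 and 6.28. Of the epithelial junction list, which holds these cadherins, 11 of 23 measured were expressed (47.8%, near the 41.8% of protein-coding genes). The junction genes Ctnna1, Tjp1, Ctnnd1, Jup and Pkp2 were expressed, at 10.89, 10.65, 9.65, 9.16 and 9.11. Epcam, Ocln, Grhl2 and Esrp1, genes of polarised epithelium, lay below the level at 5.77, 6.26, 6.38 and 5.65. No member of the claudin family on the list other than Cldn1 exceeded it.

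The Hox genes set position along the body axis. Of 33 protein-coding Hox genes measured, 14 were expressed, a share near the 41.8% of all protein-coding genes, with 5 of 8 in the Hoxa cluster, 7 of 9 in Hoxb, 2 of 9 in Hoxc and 0 of 7 in Hoxd. Hoxb6 was the brightest with 10.56, 10.67 and 10.61, followed by Hoxb5, Hoxa6 and Hoxb9 at means of 9.68, 9.52 and 9.48. All 14 belonged to paralog groups 1 to 10, where 24 were measured, and 0 of 9 in groups 11 to 13 were expressed, their means running from 5.91 to 7.30. Hoxa10, of the most posterior group represented, read 8.76, 8.92 and 8.82, and Hoxa11 read 6.46, 6.14 and 6.25.

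The brightest genes with an established symbol held structural RNAs and protein-coding genes of several kinds. The ribosomal RNA gene Rn28s1 was at 13.73 ± 0.03, the small nuclear RNA Rn7sk at 13.71 ± 0.02 and the nuclear RNA Malat1 at 13.44 ± 0.03. The cytoplasmic RNA genes Rn7s1 and Rn7s2 were both at 13.56 ± 0.06 with identical values, the mitochondrial ribosomal RNA gene mt-Rnr1 at 13.49 ± 0.07, and the microRNA genes Mir3470b and Mir3473a at 13.54 ± 0.01 and 13.45 ± 0.10. Each of these microRNA genes was read by a probe set whose identifier names another chromosome than the gene's own, so its level is uncertain. Of protein-coding genes, Thbs1, encoding the matrix glycoprotein thrombospondin 1, came first with 13.62, 13.64 and 13.60. Fn1, encoding fibronectin, followed with 13.52, 13.55 and 13.54, and Ankrd1, a nuclear gene induced by stretch and by YAP, with 13.44, 13.45 and 13.47. The tetraspanin gene Cd81, the secreted Igfbp7, the matrix gene Sparc and the antigen presentation gene B2m were at 13.24, 13.21, 12.92 and 12.85, and the carboxypeptidase gene Cpe read 13.01, 12.97 and 13.01. App, Itgb1 and Ccdc80 were at 12.82, 12.81 and 12.81, the mitochondrial gene ND3 at 13.04 ± 0.03 and the pseudogene Gapdh-ps16 at 13.13 ± 0.02. With Hspa8, Cdh2, Aqp1 and Vim, given elsewhere, these are the 25 brightest, and their SDs ran from 0.00 for Itgb1 to 0.10 for Mir3473a.

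Pseudogenes made up 29 of the 50 brightest genes and 220 of the 500 brightest, against 11 and 227 for protein-coding genes. Many pseudogenes are near-identical copies of abundant transcripts, and their probes cannot be told apart from the parent gene's here, so those levels and those of their parents are uncertain. The reverse also occurred. For 59 of 30608 genes where both were known, the probe set's identifier names another chromosome than the gene's own. Of these, 31 were protein-coding, and 29 of those 31 were expressed. Hspa8, a chaperone gene of chromosome 9 at 13.35 ± 0.06, was read by a probe set of chromosome 14, and Tuba1c, a tubulin gene of chromosome 15 at 12.69 ± 0.02, by a probe set of chromosome 13. Pgk1, Cycs, Rpl41, Rpl35 and Rpl27, named below among their lists or in its counts, were affected in the same way.

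By gene type, 8031 of 19234 protein-coding genes were expressed (41.8%), 1502 of 4429 pseudogenes (33.9%), 222 of 924 microRNA genes (24%) and 185 of 3343 long noncoding RNA genes (5.53%). Receptor families of the sensory epithelia were counted as well. Of 1229 olfactory receptor genes 9 exceeded the level in all 3 arrays (0.732%), and of 493 vomeronasal receptor genes 0 did. The 9 included Olfr1312, Olfr1313, Olfr1314, Olfr1315-ps1 and Olfr1316 of chromosome 2, at 8.26, 8.56, 9.06, 9.11 and 9.56. The remaining 4 were Olfr1346, Olfr1055, Olfr527 and Olfr30, at 9.48, 8.90, 8.36 and 8.02. Of 49 keratin-associated protein genes 6 were expressed (12.2%). The olfactory, vomeronasal and keratin-associated families had median levels of 5.06, 4.53 and 6.07. With medians this far below the level, their counts do not show how often genes near it are called wrongly.

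The shares of each list above the level covered the whole scale. All measured members were expressed for actin and myosin (26), the respiratory chain and ATP synthase (28), cytosolic ribosomal proteins (22), translation factors (14), the YAP and TEAD pathway (21) and housekeeping genes (11). Antioxidant genes (19 of 20), chaperones (19 of 21), lysosome and secretory genes (17 of 20), glycolysis (16 of 19) and cholesterol synthesis (15 of 18) were close behind. Chemokines and cytokines (7 of 26) and the marker lists of other tissues fell below the 34.4% of all genes.

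**Figure D3:**
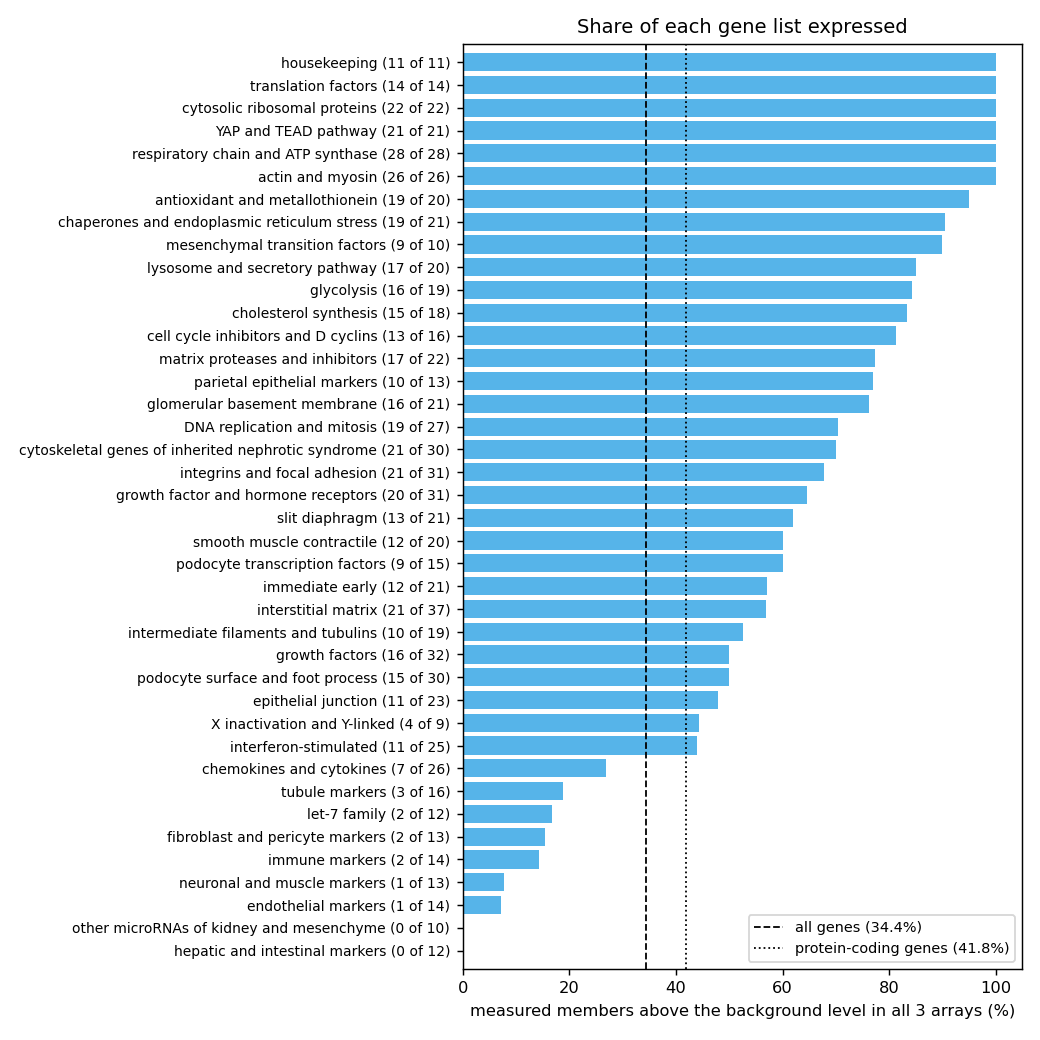
Percent of the measured members of each gene list that exceeded the background level in all 3 wildtype arrays, with the number expressed and measured beside each name. The dashed line is the share of all genes (34.4%) and the dotted line that of protein-coding genes (41.8%), and the lists for the actin cytoskeleton, YAP and TEAD reached 100% while those for endothelial, immune and hepatic markers lay under 15%.

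The basement membrane genes combined the glomerular and the general kind. Mature podocytes secrete a collagen IV network made of the Col4a3, Col4a4 and Col4a5 chains with laminin from Lama5, Lamb2 and Lamc1. Of 21 measured basement membrane genes 16 were expressed (76.2%), with a list median of 8.49. Col4a5 read 10.91, 11.06 and 10.95, but its partners Col4a3 and Col4a4 were just over the level at 7.98 ± 0.00 and 7.88 ± 0.04. For Col4a3 the 3 deposited values were identical, which the summary step can produce, so its SD understates its error. Col4a1 and Col4a2, the chains of most basement membranes, were at 8.01 ± 0.15 and 8.08 ± 0.12. The remaining chain gene, Col4a6, stood higher than these 2 and than Col4a3 and Col4a4, at 9.76 ± 0.11. Among laminins, Lamb1 was at 11.41 ± 0.04, Lamc1 at 10.43 ± 0.07, Lamb2 at 9.70 ± 0.04, Lama5 at 8.98 ± 0.07 and Lama1 at 8.49 ± 0.11. Lama2, Lama3, Lama4 and Lamb3 lay below the level at 5.71, 6.66, 5.97 and 6.87. Tinagl1, Hspg2, Col18a1 and Agrn, a matricellular gene and 3 proteoglycan genes, were at 12.34, 10.96, 10.45 and 9.94.

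Interstitial matrix was divided, with 21 of 37 measured expressed (56.8%) and a list median of 8.54. Besides Thbs1, Fn1 and Sparc, the matricellular or adhesive genes Ccn1, Postn, Tnc and Ccn2 were at 12.81 ± 0.04, 12.36 ± 0.10, 12.36 ± 0.03 and 10.61 ± 0.09. Fibrillar collagen genes lay on both sides of the level. Col1a1 was at 8.54 ± 0.12, while Col1a2 and Col3a1 lay below the level at 7.33 ± 0.09 and 7.16 ± 0.03. The proteoglycan genes Dcn and Lum, markers of fibroblasts, were at 6.43 and 5.01. The enzyme genes P4ha1, Plod2, Loxl1 and Lox, which modify collagen, were at 11.80, 10.40, 10.35 and 8.94, and Lox spanned 0.50, reading 8.75, 9.25 and 8.82. Proteases and their inhibitors numbered 17 of 22, led by Timp2, Adamts1, Ctsb and Plat at 12.13, 11.99, 11.95 and 11.90. Mmp2 and its activator Mmp14 were at 11.04 and 10.55, and Mmp3, Mmp9, Mmp10 and Mmp13 at 6.40, 6.65, 6.28 and 5.86.

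Adhesion to matrix was represented by 21 of 31 integrin and focal adhesion genes (67.7%), with a list median of 9.60. Itgb1, the common beta chain, read 12.81, 12.81 and 12.82. Its partners Itga3, the main laminin receptor chain of podocytes, Itgav and Itga5 were at 11.61, 11.48 and 9.82, and the tetraspanin gene Cd151, which binds Itga3, was at 11.67 ± 0.04. Itgb5 and Itgb6 were at 10.84 and 10.42. The collagen receptor chains Itga2 and Itga11 and the platelet chain Itgb3 lay below the level at 6.31, 6.93 and 6.85. The adapter genes Vcl, Flna, Tns1, Bcar1, Tln1, Zyx and Pxn, which join integrins to actin, ran from 11.85 down to 9.34.

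Actin genes included Actb at 12.45 ± 0.07, Msn at 11.97 ± 0.02, Cfl1 at 11.85 ± 0.03 and Tpm4 at 11.66 ± 0.05. The small GTPase genes Rhoa, Rac1 and Cdc42 were at 11.11, 10.68 and 9.59, and Wasl, the actin nucleation promoter that Nck adaptors recruit, read 9.90, 9.99 and 9.92. The contractile genes of smooth muscle were split at 12 of 20 measured (60.0%). Cald1, Cnn3, Tpm1 and Smtn were at 11.73, 11.40, 11.28 and 10.88, and Acta2, encoding smooth muscle actin, read 9.88, 10.08 and 10.25. The genes most specific to mature smooth muscle were low, with Myh11 at 7.17 ± 0.07, Actg2 at 6.96 ± 0.07 and Des at 6.74 ± 0.15, and Tagln and Myl9 exceeded the level in 1 array each, at 7.81 ± 0.06 and 7.86 ± 0.16.

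YAP1 and TAZ (Wwtr1) are coactivators that enter the nucleus on stiff or spread substrates and bind TEAD factors, and the kinases Lats1 and Lats2 hold them in the cytoplasm. All 21 measured genes of this pathway were expressed, with a list median of 9.84. Among target genes, Ankrd1 was at 13.45 ± 0.02, Ccn1 at 12.81 ± 0.04, Crim1 at 12.02 ± 0.04, Axl at 11.05 ± 0.05, Ccn2 at 10.61 ± 0.09 and Amotl2 at 10.31 ± 0.07. Of the coactivators, Wwtr1 read 10.04, 10.05 and 9.99 and Yap1 read 8.86, 9.0 and 8.87. Tead1 read 9.78, 9.95 and 9.83, with Tead3, Tead2 and Tead4 lower at 8.29, 8.04 and 7.96. The inhibitors Sav1, Lats1, Nf2, Lats2 and Stk4 were at 10.56, 9.68, 9.16, 8.95 and 8.69.

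The promoters of this list are shown because 11 of its 17 matched promoters (64.7%) held the letters CATTCC, the core that TEAD factors bind, on either strand, against 13.2% of 15591 protein-coding promoters. This motif was added after the values were seen, the list holds genes chosen as known targets, and a match is a run of letters and not a binding site. Promoter windows run from 250 bases before to 50 after the first annotated start in RefSeq, assembly GRCm38.p6. The stretches below are written from 5′ to 3′ on the gene's strand, with CATTCC or its complement GGAATG in capitals.
Ankrd1, chr19:36119950-36120069, minus strand: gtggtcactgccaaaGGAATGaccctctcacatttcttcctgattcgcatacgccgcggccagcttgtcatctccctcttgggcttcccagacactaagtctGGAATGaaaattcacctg
Ccn1, chr3:145649986-145650135, minus strand: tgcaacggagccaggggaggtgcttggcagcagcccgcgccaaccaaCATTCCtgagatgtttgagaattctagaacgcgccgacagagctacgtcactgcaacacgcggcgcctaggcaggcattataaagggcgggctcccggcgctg
Crim1, chr17:78200108-78200207, plus strand: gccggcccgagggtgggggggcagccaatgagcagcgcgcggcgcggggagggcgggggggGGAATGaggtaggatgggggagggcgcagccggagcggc
Ajuba, chr14:54577792-54577871, minus strand: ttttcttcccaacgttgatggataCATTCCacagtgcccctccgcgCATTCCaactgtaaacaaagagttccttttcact
Sav1, chr12:69987073-69987152, minus strand: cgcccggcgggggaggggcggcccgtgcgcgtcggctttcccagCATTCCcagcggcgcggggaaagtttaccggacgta
Amotl2, chr9:102717694-102717773, plus strand: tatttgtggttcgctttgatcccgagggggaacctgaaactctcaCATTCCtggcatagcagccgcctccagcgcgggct
Ankrd1 and Ajuba each held the motif at 2 places, and the stretch of Ccn1 also holds a TATAAA just before its start. All 6 genes were expressed, from 13.45 for Ankrd1 to 9.84 ± 0.05 for Ajuba.

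The contractile list gave another case. The CArG box, the element bound by serum response factor, lay in 4 of its 16 matched promoters (25%), against 1.47% of protein-coding promoters. The list was not chosen independently of genes known to respond to this factor, and a match is again not a binding site. The 4 are shown with the box in capitals.
Cnn2, chr10:79988500-79988599, plus strand: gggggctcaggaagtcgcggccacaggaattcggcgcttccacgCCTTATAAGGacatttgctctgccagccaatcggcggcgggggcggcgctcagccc
Fhl1, chrX:56779533-56779632, plus strand: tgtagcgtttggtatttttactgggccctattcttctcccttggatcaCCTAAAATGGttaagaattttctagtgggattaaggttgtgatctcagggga
Fhl2, chr1:43196812-43196911, minus strand: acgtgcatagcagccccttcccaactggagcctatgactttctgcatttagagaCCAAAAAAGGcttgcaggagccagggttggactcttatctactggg
Myl9, chr2:156775254-156775353, plus strand: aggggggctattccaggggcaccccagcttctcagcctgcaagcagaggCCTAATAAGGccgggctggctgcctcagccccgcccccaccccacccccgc
Fhl1, Cnn2 and Fhl2 were expressed at 10.47 ± 0.01, 10.24 ± 0.03 and 9.82 ± 0.03. Myl9, also with a CArG box, exceeded the level only in array 1, reading 8.05, 7.78 and 7.76.

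Across all protein-coding genes the promoter differed with the level in base composition. With the 15591 genes ordered by level and split into 5 equal parts from the dimmest to the brightest, the median number of CpG dinucleotides in the 300-base window was 2, 6, 17, 22 and 24. The median GC content was 42.3% in the dimmest and 63.0% in the brightest. Expressed genes had a median of 22 CpG and genes above the level in no array 5, and the Sp1 box GGGCGG lay on either strand in 68.6% and 31.2%. The TATA box TATAAA, searched on the gene's strand between 40 and 16 bases before the start, lay in 1.01% and 4.19%. The CCAAT box did not differ in this way, at 38.5% in both, but lay in 14 of 15 promoters of cholesterol synthesis genes (93.3%) and 18 of 22 of replication genes (81.8%). The E-box CACGTG lay in 11% and 5.92% of expressed and other promoters, and the AP-1 site TGACTCA in 3.1% and 5.76%, both strands being searched for these and for CCAAT. A start of C followed by 4 pyrimidines lay in 3 of 18 promoters of ribosomal protein genes (16.7%) and 2.07% of protein-coding promoters. GC content also sets how strongly probes bind, and the background controls rose with it, from 2.31 at 3 G and C bases to 7.84 at 22. The probes' own composition may move with these shares, and this was not tested.

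The line was differentiated, yet genes of DNA replication and mitosis were largely above background, at 19 of 27 measured (70.4%) with a list median of 8.16. Mki67, which marks dividing cells, read 10.49, 10.71 and 10.69. Ccna2, Ccnb2, Rrm1, Tpx2 and Top2a were at 9.40, 9.28, 9.22, 9.19 and 9.17, and the mitotic genes Bub1, Cdc20, Birc5 and Ttk lay below the level at 7.62, 7.55, 7.57 and 7.19. Cell cycle inhibitors and D cyclins were expressed beside them at 13 of 16 measured (81.2%). Ccng1 and Mdm2, targets of p53, were at 12.58 ± 0.04 and 11.55 ± 0.02. Cdkn1a, which encodes the inhibitor p21, read 11.63, 11.70 and 11.71, and Ccnd2 read 12.04, 12.05 and 12.10. Cdkn1b, Cdkn2b and Cdkn2a were at 8.49, 8.59 and 8.26. An array of bulk RNA does not tell whether the same cells held both groups of transcripts.

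Genes of energy supply were mostly expressed. The respiratory chain had a median of 9.60 over 28 genes, from 8.25 to 12.54, with Ndufb9, Ndufa4, Cox8a and Cycs at 12.54, 11.59, 11.54 and 11.23. Glycolysis was led by Gapdh at 12.28 ± 0.02, Pgk1 at 11.80 ± 0.05 and Ldhb at 11.24 ± 0.03, while Eno2, Slc16a3 and Aldoc lay below the level at 7.49, 7.18 and 6.72. Of cholesterol synthesis, Hmgcs1 was at 10.37 ± 0.06, Sc5d at 9.83 ± 0.05 and Cyp51 at 9.49 ± 0.06, and Idi1 and Ebp lay below at 7.47 and 7.38. Among antioxidant genes, Gclc, the first enzyme of glutathione synthesis, read 12.40, 12.44 and 12.45, and Nqo1, often induced by the same factor, read 7.15, 7.43 and 7.43. The secretory chaperone genes Hsp90b1, Canx, Pdia3, Calr and Hspa5 were at 12.63, 12.62, 12.36, 12.08 and 11.72, beside stress genes Ddit3 at 10.21, Atf4 at 9.66 and Atf3 at 8.59. Lysosomal Lamp2, Psap and Lamp1 were at 12.68, 12.47 and 12.37.

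Secreted signals were led by Fst, the activin antagonist follistatin, at 12.54 ± 0.02, Nrg1 at 11.86 ± 0.03 and Pdgfc at 11.79 ± 0.04. Of 32 growth factors 16 were expressed (50%, against 41.8% of all protein-coding genes). Hbegf, a ligand of the epidermal growth factor receptor linked to crescent formation, was at 10.37 ± 0.04, and Edn1 at 9.27 ± 0.04. Fgf2, Igf1, Hgf and Angpt1 lay below the level at 7.35, 7.33, 4.67 and 5.20. Among receptors 20 of 31 were expressed (64.5%), led by the thrombin receptor gene F2r at 11.93 ± 0.07, Tgfbr2 at 11.35 ± 0.07, Bmpr2 at 11.32 ± 0.08, Met at 11.29 ± 0.07 and Egfr at 11.09 ± 0.06. The vascular receptors Flt1 and Kdr and the angiotensin receptors Agtr1a and Agtr2 lay below at 7.28, 5.81, 6.92 and 5.43. The glucocorticoid receptor gene Nr3c1, the target of steroid therapy in nephrotic syndrome, read 9.70, 9.83 and 9.80, and the vitamin D receptor gene Vdr read 8.95, 9.0 and 8.98.

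Chemokines and cytokines above the level were Csf1 at 11.48 ± 0.03, Mif at 10.52 ± 0.05, Ccl2 at 10.11 ± 0.07, Il15, Cxcl1, Lif and Cx3cl1, the last 4 from 9.0 to 8.22. Il6, Il1b and Tnf were at 4.28, 6.13 and 6.84. Csf1 and its receptor Csf1r were thus both above background. Interferon-stimulated genes were expressed at 11 of 25 (44.0%), a share near the 41.8% of all protein-coding genes. The antigen presentation genes B2m, H2-K1 and H2-D1 were at 12.85, 10.06 and 9.92 and Ifit3 at 10.26 ± 0.16. Isg15, Mx1, Rsad2 and Oas2 were at 6.08, 6.0, 6.16 and 6.15. Of immediate early genes 12 of 21 were expressed (57.1%, against the same 41.8%). They included Dusp1 at 11.09 ± 0.01 and Klf6 at 10.93 ± 0.02, while Fos and Fosb were at 7.77 and 7.04.

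Of 10 listed genes of X inactivation and the Y chromosome with its X relatives, 9 were measured and 4 were expressed. That share, 44.4%, is near the 41.8% of all protein-coding genes. The Y-linked Ddx3y was not analysed here. Xist, the RNA that coats the inactive X chromosome, read 12.13, 12.21 and 12.21, and the Y-linked genes Kdm5d, Uty and Eif2s3y were at 6.12, 5.21 and 4.49, all below the level. Their X-linked relatives Kdm6a and Eif2s3x were at 10.00 ± 0.20 and 10.76 ± 0.03.

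MicroRNA genes on this array are read at the hairpin locus, which does not measure the mature microRNA. The families below were listed after the data were seen, and the sequences are shown because the miR-30 and let-7 families are each defined by a shared seed, the bases 2 to 8 in capitals, taken from RefSeq, assembly GRCm38.p6. Over all 924 microRNA genes 24% were expressed. Of 6 miR-30 loci 2 were expressed (33.3%), Mir30c-2 with 8.45, 8.57 and 8.47 and Mir30d with 7.97, 8.20 and 8.02. Of 12 let-7 loci 2 were expressed (16.7%), Mirlet7d with 9.85, 10.10 and 10.03 and Mirlet7a-1 with 8.04, 7.98 and 7.87. With so few loci, neither share is read as a result about its family.
miR-30c-5p, from Mir30c-2: uGUAAACAuccuacacucucagc
miR-30a-5p, from Mir30a: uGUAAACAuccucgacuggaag
let-7d-5p, from Mirlet7d: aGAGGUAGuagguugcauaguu
let-7a-5p, from Mirlet7a-1: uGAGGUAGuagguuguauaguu
Mir30a lay below the level at 7.23 ± 0.19, and the same was true of Mir143, Mir145a and Mir200c, at 7.31, 4.76 and 4.92. With array 1 left out, 4 of 12 let-7 loci were expressed, the added ones being Mirlet7c-1 (7.52, 8.17 and 7.98) and Mirlet7f-1 (7.55, 7.98 and 8.08).

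The 3 arrays were close to each other. Pearson correlations across genes, which are not independent replicates, were 0.993 between arrays 1 and 2 and 0.997 for each other pair. The SD of the log2 difference was 0.24 between arrays 1 and 2, 0.14 between 1 and 3 and 0.16 between 2 and 3. The difference between arrays 1 and 2 depended on the level. Array 3 lay between them by the median difference for genes with means from 3 to 12, and above both by 0.02 to 0.03 for genes from 12 to 14. Array 1 exceeded array 2 by a median of 0.20 for genes with a mean from 6 to 7, and was lower by 0.12 for genes from 9 to 10. Dim genes thus read higher and bright genes lower in array 1, so its values were drawn together, with an SD over genes of 1.81 against 1.90 in array 2 and 1.85 in array 3. The median range of a gene's 3 values fell from 0.23 at means of 6 to 7 to 0.05 at 13 to 14.

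**Figure D4:**
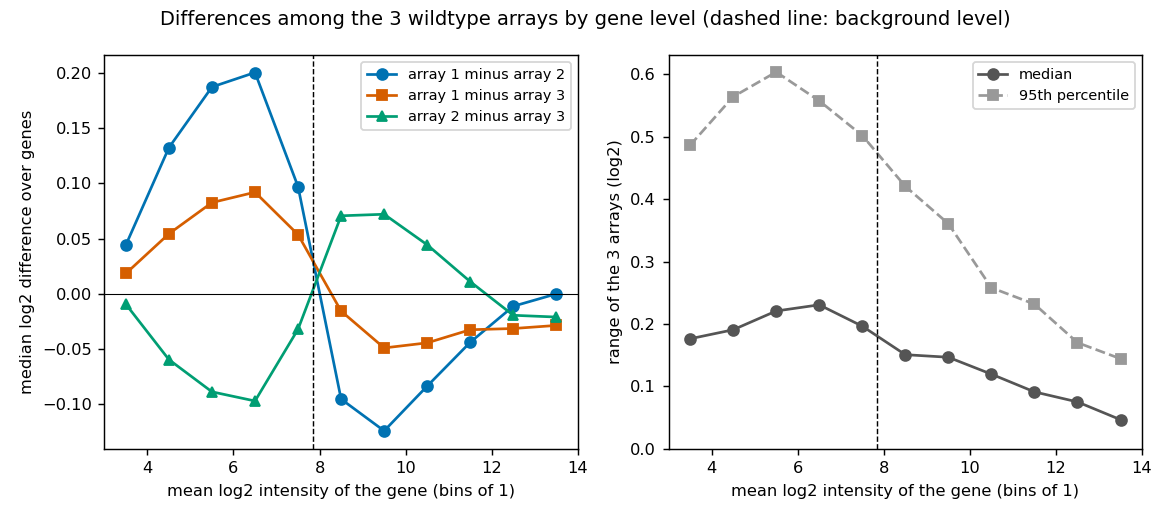
Left, the median log2 difference between each pair of wildtype arrays over genes grouped by mean log2 intensity in steps of 1; right, the median and 95th percentile of the range of a gene's 3 values. Array 1 lay above array 2 by 0.20 at means of 6 to 7 and below it at 9 to 10, and the median range fell to 0.05 for the brightest genes.

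Very few genes varied by much among the arrays. A range of at least 1, which is at least 2-fold, with 1 or more arrays above the level was seen for 3 of 30705 genes (0.00977%), and 0 of them were protein-coding. They were Gm23258, a predicted gene, with 7.0, 8.17 and 7.62, the immunoglobulin variable segment pseudogene Ighv1-2 with 10.20, 9.16 and 9.60, and the microRNA gene Mir6973a with 8.04, 7.02 and 7.85. In each of the 3 the extremes were arrays 1 and 2, and without either of those arrays the count was 0. A range of at least 0.5, or 1.41-fold, was seen for 276 genes (0.899%). Out of genes above the level in at least 1 array, they included 98 of 8749 protein-coding and 66 of 290 microRNA genes. They also included 27 of 279 small nuclear RNA genes, 26 of 1632 pseudogenes and 22 of 261 long noncoding RNA genes. Variable segments of immunoglobulin or T-cell receptor genes gave 14 of 33, and pseudogenes of such segments 2 of 4. Of the 276, array 3 lay between the others in 136 with array 1 highest (49.3%) and in 123 with array 2 highest (44.6%). Over all 11635 genes above the level in at least 1 array, these orders made up 11% and 47.6%. Without array 1 the count was 29, without array 2 it was 26 and without array 3 it was 265, so the wide ranges rest on the gap between arrays 1 and 2.

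Most protein-coding genes with a wide range were near background. Of the 98, 60 exceeded the level in only 1 or 2 arrays and 38 in all 3, and their median level was 7.96. Over all protein-coding genes above it in at least 1 array, 8031 of 8749 were above in all 3. Genes were kept with 1 or more arrays above the level, so the count of 60 follows in part from that rule. The widest was Pcdhb16, a clustered protocadherin gene, with 7.92, 8.81 and 8.24. Omd, encoding the matrix proteoglycan osteomodulin, read 7.30, 8.11 and 7.53, and the cytokine gene Il17c read 8.35, 7.55 and 8.02. These show the extremes in arrays 1 and 2 with array 3 between. Mt2 and Emp2 departed from that order. Mt2, a metallothionein gene induced by metals and glucocorticoids, read 9.09, 8.55 and 8.41, higher in array 1 than in both others, while its neighbour Mt1 read 9.04, 9.07 and 9.06. Emp2, in which mutations cause nephrotic syndrome, read 7.95, 7.49 and 7.32. Others kept array 3 between, but close to 1 of the extremes. Pmp22, a membrane protein gene related to Emp2, read 8.78, 8.14 and 8.75, with array 2 low. Naf1, needed to assemble small nucleolar RNA particles, read 8.56, 9.20 and 9.13, with array 1 low. Klf2, a factor induced by flow, read 8.13, 7.52 and 7.97.

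**Figure D5:**
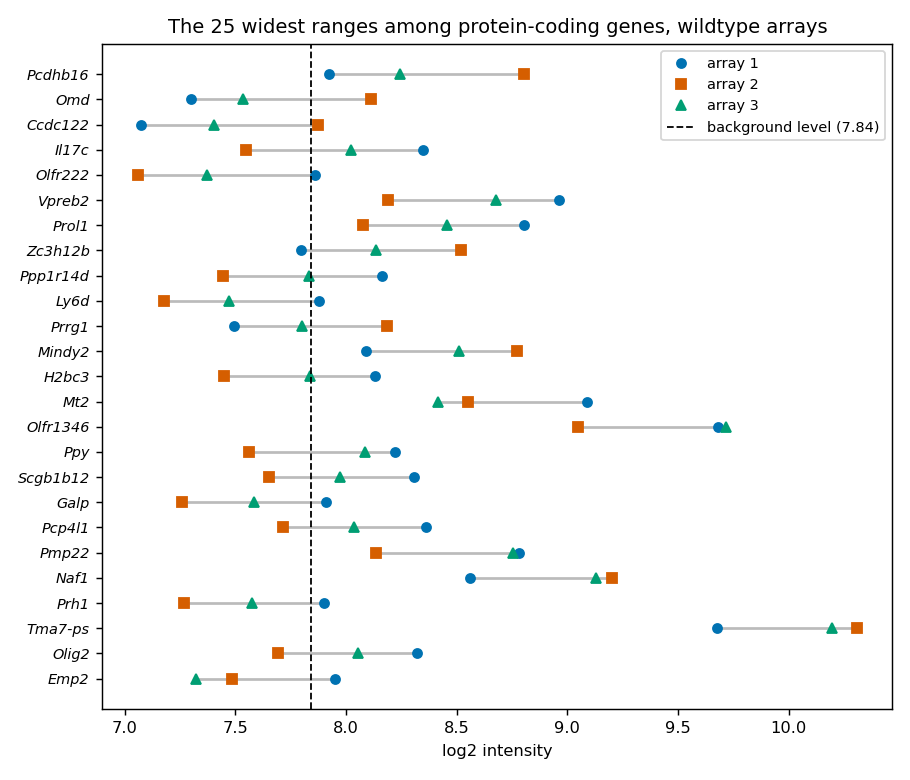
Log2 intensity in wildtype arrays 1 (circle), 2 (square) and 3 (triangle) for the 25 protein-coding genes with an established symbol and the widest range, widest at the top, with the background level of 7.84 as a dashed line. Array 3 lay between arrays 1 and 2 for most of them, and Mt2, Olfr1346 and Emp2 departed from that order.

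Array 3 seldom stood apart. Where it did among protein-coding genes the ranges were smaller. The widest on the high side was Nkx2-3 with 7.63, 7.50 and 7.92, followed by the cornified envelope gene Sprr1a with 8.10, 8.01 and 8.40. On the low side, Elfn1 read 8.28, 8.47 and 8.04, and Sfrp1, a secreted inhibitor of Wnt signalling, read 10.53, 10.69 and 10.34.

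Some lists differed between arrays by small amounts. Over all 10554 expressed genes, array 1 was below array 3 in 6630, array 1 was above in 3555, and array 3 was the lowest in 2580. Over the 19 expressed genes of replication and mitosis, array 1 was below array 3 in 15, with a median difference of -0.17, against -0.03 over all expressed genes with a mean of 8 to 11. Mki67, Rrm1 and Rrm2 (8.65, 8.83 and 8.87) show this, with arrays 2 and 3 close together. Translation factors had array 1 below array 3 in 12 of 14, with a median of -0.09 that became -0.04 after the arrays were quantile-normalized to each other, Eef1a1 reading 12.18, 12.24 and 12.32. Matrix proteases and inhibitors were lowest in array 3 for 14 of 17, with a median of array 1 over array 3 of 0.04, or 0.08 after quantile normalization, and Ctsb read 11.99, 11.99 and 11.86. Lysosome and secretory genes were lowest in array 3 for 11 of 17, Psap reading 12.53, 12.46 and 12.44, with a median of 0.04, or 0.07 after quantile normalization. Basement membrane genes were lowest there for 8 of 16, with a median of 0.05, or 0.10 after quantile normalization, and Agrn read 9.95, 10.04 and 9.83. These lists were picked out after their values were seen, and the members of a list are not replicates. The shifts are below the 0.5 used for single genes, and whether they come from the cultures or from the handling of the arrays was not tested.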

How the data were processed

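Total RNA of 6 cultures was hybridised to Affymetrix mouse arrays, and the 3 arrays of the wildtype line were used. The authors deposited 1 log2 value per probe set and array; per the submitters' processing notes these were made with RMA (background correction, quantile normalization and summary over probes) in affy 1.44.0. Quantile normalization removes overall differences in intensity between arrays, so only relative shifts remain. For the genome build and probe definitions behind the values, the entry is: not given in the sources used here. Of 72688 probe sets, 31261 named a single gene in the platform annotation, in which 1199 symbols were updated through the reference table, and the set with the highest mean over the wildtype arrays was kept for each of 30705 genes. The background level was the highest mean among 23 background control probe sets. As the labels give no culture identity beyond independence, the spread measures these samples only, and the number of arrays limits precision. No test was run.

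Genes were named by a rule: the 25 brightest with an established symbol, all members of the 3 podocyte lists, the 4 brightest and 2 dimmest members of each other list, genes with a range of at least 1, and the 3 nearest to the level on either side. Not all that the rule allows are named, and further list members were picked with their values in view. Members and the 38 lists were chosen with earlier results of these data known; 3 microRNA lists and the CATTCC motif were added after the data were seen, as were the Hox, olfactory and array-order examples and the genes with a range of at least 0.5. Promoter windows and mature microRNAs came from RefSeq tables for GRCm38.p6. Calculations used Python 3.11.15, numpy 2.4.6 and pandas 2.3.3, and figures matplotlib 3.10.9; the counting steps were tested on simulated data. Alternatives were other levels and range limits, quantile normalization, equal medians, probe set choice, protein-coding genes only and leaving out each array.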

Additional observations from a re-analysis of the deposited data

Results flagged for a closer look

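Signal was also present in probe sets outside the gene counts, above the same background level in all 3 arrays. Of 33206 probe sets with no gene name, 4896 exceeded it (14.7%), and of 1489 that named several genes, 571 did (38.3%). Of 5222 probe sets with neg in their names, 1248 exceeded it (23.9%), with array medians of 6.93, 7.26 and 7.10, so array 2 was highest there while it was lowest over genes (7.22, 7.08 and 7.16). What these sets match is not given in the sources used here. Of 92 probe sets for ERCC spike-in RNAs, 2 exceeded it (2.17%).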

How the results depend on the processing

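No paired analysis was possible because a single group was described and no value comes from a test. The count of 10554 expressed genes became 28342 with the median of the background controls as the level. It became 3576 with the 95th percentile of the probe sets with neg in their names, 9.37. At the median control level all measured members passed in the slit diaphragm list (21), the transcription factors (15), the surface list (30) and the tubule markers (16). List counts were not made at 9.37. By their means, Synpo, Podxl, Nck1 and Lmx1b would lie below 9.37, at 8.73, 8.31, 8.63 and 7.99. Cd2ap and Mme would lie above it, at 11.15 and 12.35. The list counts therefore depend on the level chosen. The 3 genes with a range of at least 1 became 276 at 0.5 and 0 at 2, 1 with all 3 arrays required above the level, 34 with no filter, 10 after equal medians, 5 after quantile normalization, 0 among protein-coding genes and 0 to 3 with an array left out. The 276 with a range of at least 0.5 became 134 with all 3 arrays required, 1601 with no filter, 579 after equal medians, 98 among protein-coding genes and 26 to 265 with an array left out; after quantile normalization there were 288, of which 230 were shared. Over expressed genes only, the SD of the difference was 0.16 for arrays 1 and 2 and 0.10 for arrays 2 and 3. Genes below the median control level had a median of 1 CpG in the promoter, against 5. The shift of array 1 against 3 in actin and myosin genes turned from -0.03 to 0.01 after quantile normalization, while that of replication genes went from -0.17 to -0.14. The cause of these changes was not tested beyond what each setting itself fixes. With 1 line and 3 arrays, and with intensity near background for most genes, small differences cannot be resolved.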
